A study of Homo sapiens with 6 samples.

Results

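The genes described here are 9 components of MHC class I antigen presentation, namely the heavy chain genes HLA-B, HLA-C, HLA-E and HLA-F, the light chain gene B2M, the peptide loading genes TAP1, TAP2 and TAPBP, and the transactivator gene NLRC5. They were chosen by gene symbol, and each symbol matched exactly 1 row, so they are 9 of the 60623 genes in the table. RNA sequencing counts were compared between 3 libraries labelled shSTN1, with a short hairpin RNA against the telomere maintenance gene STN1, and 3 control libraries, labelled shControl and wild type. All 6 libraries carry the label PANC-1, an established human cell line from a pancreatic ductal carcinoma, grown in the same serum-containing medium. The genotype label of 2 shSTN1 libraries names STN2 and STN3 in place of STN1, and the titles were used for grouping. How the hairpins were delivered, and whether each line was a clone or a pool, is not given in the sources used here.

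Class I molecules show peptides from the inside of a cell to CD8+ T cells. Peptides cut by the proteasome are carried into the endoplasmic reticulum by the TAP1-TAP2 transporter, and tapasin, the product of TAPBP, holds the empty class I molecule at the transporter while a peptide is chosen. A heavy chain reaches the cell surface only with beta-2-microglobulin and, as a rule, a peptide. NLRC5 raises transcription of class I genes by joining a complex of RFX, CREB/ATF and NF-Y factors at the SXY module of their promoters, and interferons and NF-kB act through neighbouring elements.

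Library totals ran from 17357223 to 23336942 counted reads. The labels were checked first. STN1 itself stood at 16.4 ± 1.95 CPM (counts scaled to a common library size with TMM factors, mean ± SD of 3 libraries throughout) in control and 14.8 ± 0.793 CPM in shSTN1, and did not pass the test (log2 fold change -0.15, edgeR adjusted p = 0.253). CDKN2A, a gene that PANC-1 is described as having lost, had 11753 control reads and 0 in shSTN1, which goes against the label of the control libraries. IRS4, which encodes an adaptor of the insulin receptor, went from 20505 control reads to 3 in shSTN1. All 6 epithelial markers (KRT8, KRT18, KRT19, KRT7, EPCAM and CDH1) had reads in both groups, with a summed level of 920 to 981 CPM in control and 5544 to 5713 CPM in shSTN1. The 3 libraries of each group go together in these markers, so no library could be left out to remove the difference, and the hairpin and other differences between the cells cannot be told apart in any result here. Every direction is therefore between libraries as labelled.

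The promoters of 5 members are shown first, so that their letters can be read beside the values that follow. RefSeq windows (GRCh38.p14) were found for 7 of the 9 members. HLA-E and NLRC5 had no window, so their promoters were not searched. The 250 bases before the annotated start are printed 5′ to 3′ on the strand of the gene for 3 members that rose and 2 that did not pass the test. Capitals mark matches, on either strand, to 5 motifs. These are the interferon-stimulated response element GAAANNGAAA, the CRE core TGACG bound by CREB/ATF factors, the NF-Y box CCAAT, the kappaB consensus of NF-kB factors, and the GAS element TTCNNNGAA of interferon gamma signalling. Matches that touch or overlap, such as the paired interferon elements of TAPBP, are capitalised as 1 stretch.
B2M, chr15:44711267-44711516, plus strand: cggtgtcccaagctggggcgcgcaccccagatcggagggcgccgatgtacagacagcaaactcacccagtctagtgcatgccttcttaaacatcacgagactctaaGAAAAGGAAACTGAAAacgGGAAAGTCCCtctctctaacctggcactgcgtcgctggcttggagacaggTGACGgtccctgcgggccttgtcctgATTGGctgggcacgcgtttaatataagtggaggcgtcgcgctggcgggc
TAP1, chr6:32853705-32853954, minus strand: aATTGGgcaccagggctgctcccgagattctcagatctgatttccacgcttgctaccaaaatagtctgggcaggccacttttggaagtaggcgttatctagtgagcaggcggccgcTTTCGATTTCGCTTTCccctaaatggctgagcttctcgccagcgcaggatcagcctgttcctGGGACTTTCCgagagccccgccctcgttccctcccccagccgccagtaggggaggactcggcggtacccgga
TAPBP, chr6:33314079-33314328, minus strand: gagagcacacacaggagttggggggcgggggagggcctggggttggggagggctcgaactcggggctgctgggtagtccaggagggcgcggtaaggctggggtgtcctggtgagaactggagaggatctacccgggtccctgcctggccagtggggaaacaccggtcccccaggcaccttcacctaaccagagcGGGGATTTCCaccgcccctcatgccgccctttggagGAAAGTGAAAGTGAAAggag
HLA-C, chr6:31272093-31272342, minus strand: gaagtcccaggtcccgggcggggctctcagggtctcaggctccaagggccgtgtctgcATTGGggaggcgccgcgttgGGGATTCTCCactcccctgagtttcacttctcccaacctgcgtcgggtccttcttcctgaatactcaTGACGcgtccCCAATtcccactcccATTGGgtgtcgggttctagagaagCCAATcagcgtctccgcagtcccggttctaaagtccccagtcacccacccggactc
HLA-F, chr6:29723184-29723433, plus strand: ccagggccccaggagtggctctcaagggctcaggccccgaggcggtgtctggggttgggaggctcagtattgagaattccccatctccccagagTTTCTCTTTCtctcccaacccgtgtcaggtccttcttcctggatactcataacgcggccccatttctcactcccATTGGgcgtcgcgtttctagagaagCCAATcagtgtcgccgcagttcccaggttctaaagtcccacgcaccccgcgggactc

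The interferon element was matched in the windows of B2M, TAP1, TAP2, TAPBP and HLA-F, and in 3.02% of all 35116 promoter windows of this length. B2M, TAP1 and TAPBP each held 2 overlapping copies, ending 129, 119 and 5 bases before the RefSeq start. TAP2 and HLA-F each held 1 copy, and of these TAP2 was called higher and HLA-F was not called. HLA-B and HLA-C had no match to these exact letters, which says only that this spelling is not in the window. The CRE core was matched in HLA-B, HLA-C, B2M and TAP2 (21.2% of all windows), and CCAAT in HLA-B, HLA-C, HLA-F, B2M and the upstream TAP1 window (32% of all windows). HLA-B and HLA-C held the CRE core from 106 and 105 bases before the start, followed by CCAAT boxes in both orientations. The kappaB consensus was matched in HLA-B, HLA-C, B2M, TAP1 and TAPBP, against 9.96% of all windows. The GAS element was matched in a second TAP1 window alone among the members searched, which leave out HLA-E and NLRC5, against 6.57% of all windows. These matches are descriptions of the reference, and no binding was measured.

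The peptide loading genes and the light chain were higher in the shSTN1 libraries, the heavy chain genes HLA-B and HLA-C were not called, and the transactivator was lower. All 9 members passed the low-count filter. The edgeR quasi-likelihood test at an adjusted p under 0.05 called 5 members higher (HLA-E, B2M, TAP1, TAP2 and TAPBP) and 1 lower (NLRC5), where 35.6% of all 17451 genes tested were higher, 38.5% lower and 74.1% called in either direction. The number of members called is therefore near the background. At 2-fold or more, 4 members were higher (HLA-E, B2M, TAP1 and TAPBP), where 15.7% of all genes were. The groups did not overlap for the same 6 members that were called, against 75.6% of all genes. The median log2 fold change was 0.55 over the members and -0.03 over all genes tested. These are bulk samples, so fewer cells with a transcript and less transcript per cell cannot be told apart.

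**Figure D1:**
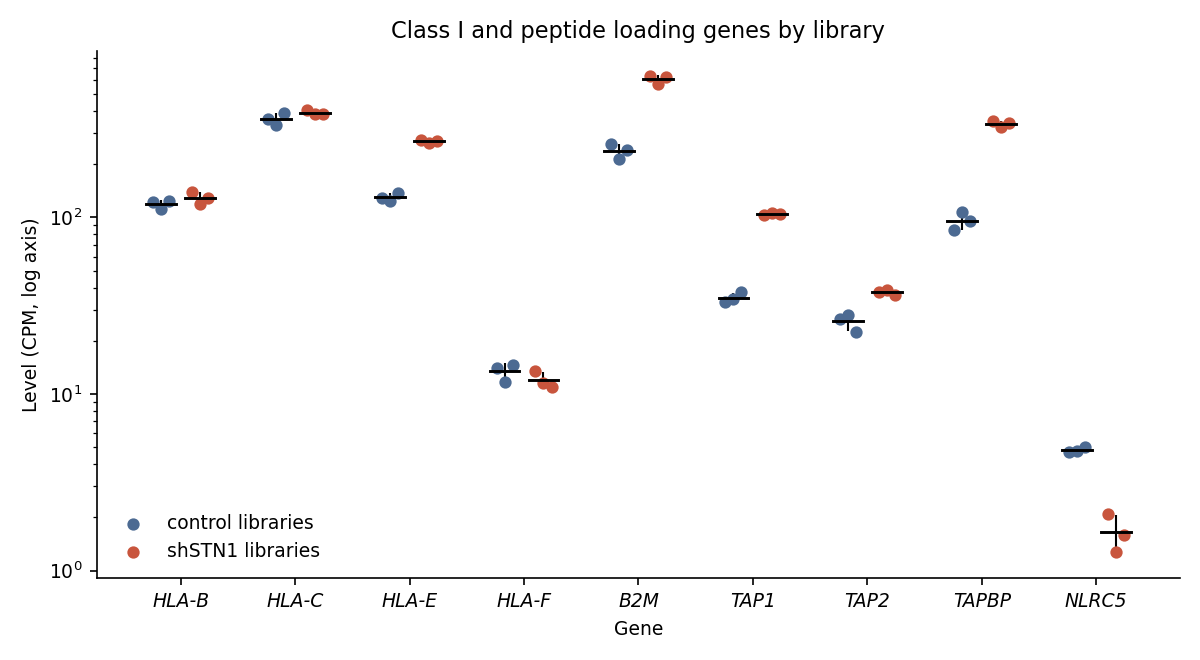
Level of each of the 9 genes in CPM on a log axis, with 3 control libraries (blue) and 3 shSTN1 libraries (red), the mean as a horizontal bar and the SD as a vertical line. The groups overlap for HLA-B, HLA-C and HLA-F, lie apart and higher in shSTN1 for HLA-E, B2M, TAP1, TAP2 and TAPBP, and lie apart and lower for NLRC5.

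HLA-B and HLA-C encode classical heavy chains, which present peptides to T cells, and HLA-C is also the main heavy chain read by KIR receptors of NK cells. HLA-B (ENSG00000234745.11, chromosome 6, positions 31269491 to 31357188 in GENCODE 29, GRCh38) stood at 123, 111 and 123 CPM in control and at 139, 119 and 129 CPM in shSTN1. The highest value was in an shSTN1 library, but the groups overlapped, and the difference did not pass (log2 fold change 0.11, SE 0.0807, edgeR adjusted p = 0.155). The limma-voom 95% interval ran from -0.03 to 0.25, or 0.977-fold to 1.19-fold. HLA-C (ENSG00000204525.16, positions 31268749 to 31272130) stood at 362, 334 and 388 CPM in control and 404, 387 and 384 CPM in shSTN1. One control library lay within the shSTN1 range, and the difference did not pass (log2 fold change 0.12, SE 0.0672, edgeR adjusted p = 0.102, interval -0.00 to 0.24). HLA-C passed when control replicate 3 was left out (0.16, edgeR adjusted p = 0.0313, within 0.0313 to 0.462 over the 13 alternatives run), so its call rests on that library, although the upper end of its interval was 1.18-fold.

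HLA-E and HLA-F encode nonclassical heavy chains. HLA-E presents mainly leader peptides of other class I heavy chains to the NKG2A receptor of NK cells. HLA-E (ENSG00000204592.9, positions 30489467 to 30494205) rose from 129, 124 and 137 CPM in control to 275, 265 and 271 CPM in shSTN1. Each shSTN1 library was far above the highest control library, a 2.08-fold difference of the means (log2 fold change 1.06, SE 0.0456, edgeR adjusted p = 3.93e-16). HLA-F (ENSG00000204642.14, positions 29722775 to 29738528), a mostly intracellular heavy chain, had 262 to 291 reads per control library and 194 to 277 per shSTN1 library. It stood at 14.0, 11.7 and 14.7 CPM in control and 13.5, 11.6 and 11.01 CPM in shSTN1. The values overlapped and did not pass (-0.16, SE 0.132, edgeR adjusted p = 0.272), with an interval of 0.752-fold to 1.08-fold that does not reach the increase of HLA-E.

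Heavy chain genes resemble each other, and reads with more than 1 match can be lost or split. Of all 50-base words in the principal GENCODE 29 transcript, 2.54% in HLA-B, 6.79% in HLA-C, 5.13% in HLA-E and 1.7% in HLA-F also occurred in a transcript of another gene. These are shares of the reference sequence and set no bound on the error of the levels. HLA-B and HLA-C also overlap on the same strand in the annotation, and alleles that differ from the reference can lose reads, so the levels of the heavy chain genes are uncertain. B2M, TAPBP and NLRC5 had 0 shared words, and TAP1 had 1.07%. TAP2 had 80.2%, and which gene shares these words, or whether it overlaps TAP2, was not recorded. The reads of TAP2 therefore depend on how the authors' counting treated shared or overlapping stretches. That treatment is not given in the sources used here.

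B2M (ENSG00000166710.20, chromosome 15, positions 44711487 to 44718877) encodes beta-2-microglobulin, the light chain shared by all class I heavy chains. It stood at 259, 213 and 241 CPM in control and 630, 570 and 625 CPM in shSTN1. The lowest shSTN1 library was above all control libraries, a 2.57-fold difference of the means (log2 fold change 1.36, SE 0.0945, edgeR adjusted p = 4.73e-18). Of all genes tested, 10.4% had a larger log2 fold change than B2M. The reads of HLA-B and HLA-C together were 1.88, 2.09 and 2.13 times those of B2M in control and 0.862, 0.886 and 0.819 times in shSTN1, above 1 in each control library and below 1 in each shSTN1 library.

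TAP1 and TAP2 encode the subunits of the transporter that moves peptides into the endoplasmic reticulum. TAP1 (ENSG00000168394.11, chromosome 6, positions 32845209 to 32853978) stood at 33.3, 34.4 and 37.7 CPM in control and 103, 106 and 104 CPM in shSTN1. The shSTN1 libraries lay within 1.09% (coefficient of variation) of each other, and the difference was 2.97-fold (log2 fold change 1.57, SE 0.0549, edgeR adjusted p = 1.80e-18). TAP2 (ENSG00000204267.15, positions 32821833 to 32838780) rose less, from 26.7, 28.1 and 22.5 CPM to 37.9, 38.8 and 36.5 CPM. Its groups lay apart, at a 1.47-fold difference (0.55, SE 0.1003, edgeR adjusted p = 5.83e-06). The ratio of TAP1 to TAP2 reads was 1.25, 1.22 and 1.68 in control and 2.72, 2.72 and 2.85 in shSTN1.

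TAPBP (ENSG00000231925.11, chromosome 6, positions 33299694 to 33314387) encodes tapasin, which ties class I molecules to the transporter and edits their peptides. It stood at 85.3, 107 and 95.2 CPM in control and 349, 324 and 343 CPM in shSTN1. This was the largest increase among the 9 members, 3.53-fold (log2 fold change 1.82, SE 0.101, edgeR adjusted p = 5.77e-21), and 6.20% of all genes tested had a larger log2 fold change. TAPBP thus moved beyond the heavy chains HLA-B and HLA-C that tapasin serves.

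NLRC5 (ENSG00000140853.15, chromosome 16, positions 56989485 to 57083531) encodes the class I transactivator and was the only member called lower. Its reads numbered 98, 106 and 92 across control libraries, against 43, 28 and 28 across those labelled shSTN1. These correspond to 4.72, 4.74 and 4.98 CPM in control and 2.10, 1.28 and 1.59 CPM in shSTN1, without overlap. The mean was 2.91-fold lower (log2 fold change -1.54, SE 0.196, edgeR adjusted p = 2.84e-07). With 99 reads over the shSTN1 libraries, NLRC5 was the least precisely measured member, with a coefficient of variation of 24.9% in that group against 3.07% in control. The coefficient of variation of the other members lay between 5.16% and 11.5% in control and between 1.09% and 10.95% in shSTN1.

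Levels of different genes are compared per kilobase of the principal GENCODE 29 transcript. In control the order was HLA-C (235 ± 17.7 CPM per kb), B2M (139 ± 13.6), HLA-B (77.1 ± 4.39), TAPBP (50.8 ± 5.81), HLA-E (49.98 ± 2.58), TAP1 (11.9 ± 0.784), TAP2 (10.3 ± 1.17), HLA-F (8.24 ± 0.949) and NLRC5 (0.706 ± 0.0217). The ranges of mean ± SD overlapped between TAPBP and HLA-E, between TAP1 and TAP2, and between TAP2 and HLA-F. In shSTN1 the order was B2M (357 ± 19.5 CPM per kb), HLA-C (255 ± 7.32), TAPBP (179 ± 7.01), HLA-E (104 ± 1.94), HLA-B (83.3 ± 6.47), TAP1 (35.3 ± 0.384), TAP2 (15.1 ± 0.449), HLA-F (7.37 ± 0.807) and NLRC5 (0.243 ± 0.0605). TAPBP and HLA-E passed HLA-B, and B2M passed HLA-C. The places of B2M and HLA-E depend on the length used. Per kilobase of all its exons merged, a length chosen after the data were seen, B2M was at 39.0 CPM per kb in control and 100.1 in shSTN1, below HLA-C at 144 and 156. On that length HLA-E (43.7 and 90.8) lay above HLA-B (39.1 and 42.2) in both groups, while TAPBP (19.0 and 67.0) was below HLA-B in control and above it in shSTN1.

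The balance between partner genes was compared as the log2 ratio of reads within each library, which needs no scaling factor. The 6 ratios were tested by two-sided exact permutation, where 3 libraries against 3 cannot go below p = 0.1, so none could pass 0.05. The TAP1 to TAP2 ratio was higher in all shSTN1 libraries than in any control library, by 1.02 on the log2 scale (SE 0.149, exact p = 0.1, 0.15 adjusted over the 6 ratios). The HLA-E to HLA-B plus HLA-C log2 ratio differed by 0.94 (SE 0.0274, exact p = 0.1, adjusted 0.15), and that of HLA-B plus HLA-C to B2M by -1.25 (SE 0.0661, exact p = 0.1, adjusted 0.15). TAP1 to PSMB9, the immunoproteasome gene that starts next to TAP1 on the opposite strand, was 15.5, 14.9 and 17.6 in control and 5.22, 5.66 and 5.23 in shSTN1 (log2 difference -1.58, SE 0.0820, exact p = 0.1, adjusted 0.15). TAP1 to TAPBP overlapped between the groups (-0.25, SE 0.107, exact p = 0.2, adjusted 0.24). HLA-B to HLA-C lay between 0.318 and 0.340 in control and between 0.307 and 0.343 in shSTN1 (-0.01, SE 0.0563, exact p = 0.9, adjusted 0.9).

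**Figure D2:**
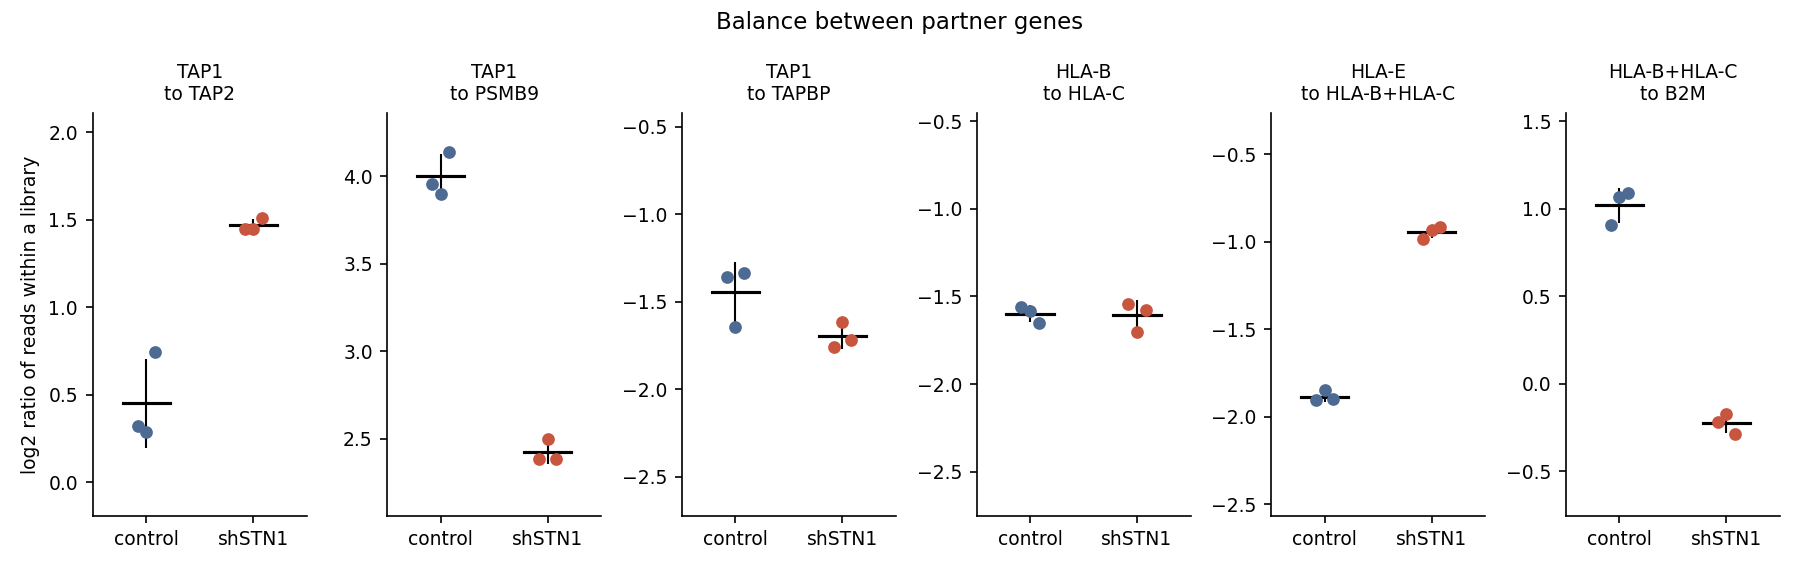
Log2 ratio of reads of 2 genes, or sums of genes, within each library, for 3 control (blue) and 3 shSTN1 libraries (red), with the mean as a horizontal bar and the SD as a vertical line. All panels span the same number of log2 units. The HLA-B to HLA-C ratio is the closest between the groups, while TAP1 to TAP2, TAP1 to PSMB9, HLA-E to HLA-B plus HLA-C, and HLA-B plus HLA-C to B2M lie apart.

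Other genes of the pathway were described from lists. Of 11 endoplasmic reticulum chaperones and trimming enzymes, 9 rose, 1 fell and 1 did not pass, with a median log2 fold change of 0.44. The aminopeptidase genes ERAP1 and ERAP2, which trim peptides to the length class I binds, rose from 10.7 ± 1.31 to 31.9 ± 2.32 CPM and from 2.23 ± 0.513 to 8.31 ± 0.483 CPM (log2 fold changes 1.57 and 1.89, edgeR adjusted p = 3.17e-14 and 1.06e-10). The trimming enzyme gene LNPEP (0.87) and the calreticulin gene CALR (0.60), a chaperone of the loading complex, also rose. The abundant chaperone CALR stood at 953 ± 29.7 CPM in control and 1445 ± 41.7 CPM in shSTN1.

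Of 10 genes for the supply of peptides in the cytosol, 7 rose and 3 fell, with a median of 0.31. The immunoproteasome subunit genes, which alter the cuts the proteasome makes, rose from low levels. PSMB9 rose from 2.17 ± 0.0962 to 19.4 ± 0.698 CPM (3.16), PSMB8 from 2.68 ± 0.396 to 21.7 ± 0.0798 CPM (3.01) and PSMB10 from 0.839 ± 0.431 to 2.73 ± 0.253 CPM (1.72, edgeR adjusted p = 1.42e-05). The proteasome activator gene PSME2 rose as well, from 43.4 ± 2.88 to 123 ± 5.94 CPM (1.499). THOP1, a cytosolic peptidase that destroys class I peptides, fell by 0.48 on the log2 scale.

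Of 16 genes that act on class I transcription, 8 rose, 3 fell and 5 did not pass, with a median of 0.17. The 3 that fell were the subunits of the RFX complex, to which NLRC5 is recruited. RFXAP went from 19.2 ± 1.90 to 6.36 ± 0.501 CPM (-1.59, edgeR adjusted p = 9.22e-13), RFX5 from 97.0 ± 4.31 to 69.8 ± 3.29 CPM (-0.48, edgeR adjusted p = 5.98e-07), and RFXANK from 44.8 ± 4.03 to 37.0 ± 0.755 CPM (-0.28, edgeR adjusted p = 0.0055). IRF1, which binds the interferon element, rose from 9.78 ± 1.19 to 27.4 ± 0.295 CPM (1.48), and IRF2 (1.35) and the NF-kB subunit gene RELA (0.76) rose too. RFXANK and IRF2 fall outside the rule for named genes and were named after their values were seen. The class II transactivator gene CIITA had 67 reads in control and 66 in shSTN1 (0.01, edgeR adjusted p = 0.975).

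Of 12 genes of interferon receptors and their signalling, 7 rose, 1 fell and 4 did not pass, with a median of 0.72. The feedback inhibitor gene SOCS3 (1.72), the interferon gamma receptor gene IFNGR2 (0.96) and the kinase gene JAK1 (0.73) rose, with edgeR adjusted p from 1.14e-18 to 2.79e-11.

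**Figure D3:**
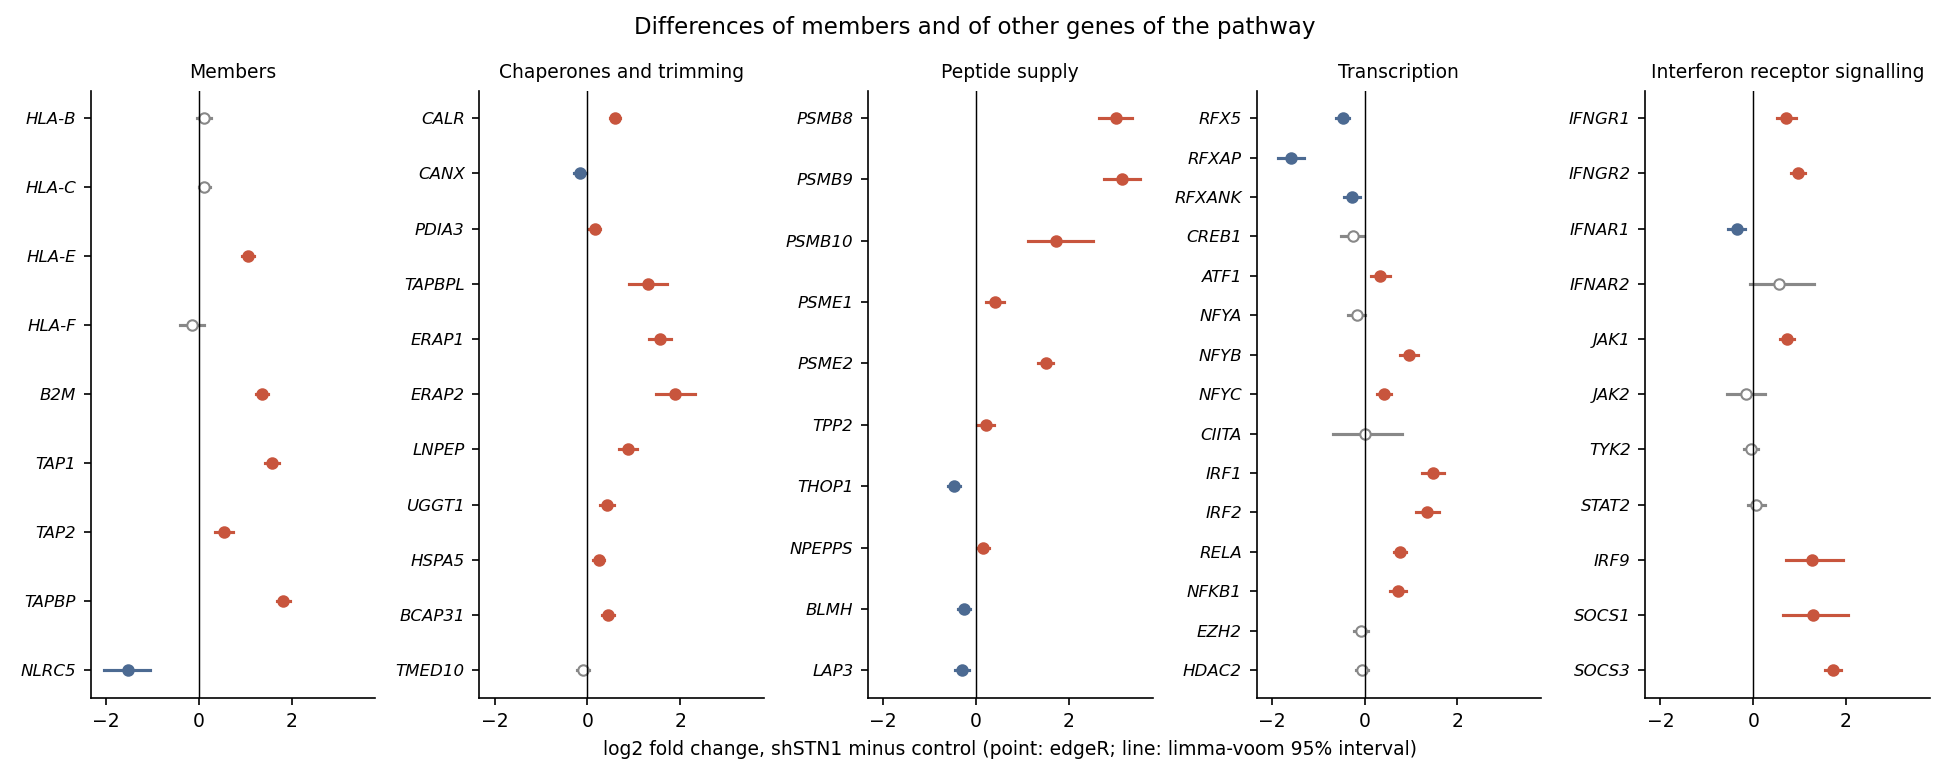
Log2 fold change, shSTN1 minus control, of the 9 members and of the genes reported here from 4 pathway lists. Points are edgeR estimates and lines are limma-voom 95% intervals; red and blue mark genes called higher and lower, and open grey points genes that were not called. The RFX subunits and NLRC5 lie below 0, while TAP1, TAPBP, B2M, IRF1 and the immunoproteasome genes lie above 0.

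Other proteins related to class I did not move in 1 direction. Of 8 other genes whose products pair with beta-2-microglobulin, 4 CD1 genes had 0 reads in all libraries and were not tested. The iron regulator gene HFE rose from 3.90 ± 0.611 to 19.7 ± 1.34 CPM (2.34), while MR1, which presents vitamin metabolites, fell by 1.45 and the Fc receptor gene FCGRT by 0.44 on the log2 scale. CD1D had 108 reads in control and 0 in shSTN1, at least 35.03-fold lower with a limit of 3 reads over the group. The median of these 4 tested genes was -0.94, and CD1D at its bound gives the same median. Of 7 tested ligands of the NK receptor NKG2D, 4 rose and 2 fell. MICB rose from 37.7 ± 1.20 to 145 ± 6.48 CPM (1.94), and MICA (0.63) and ULBP1 (1.04) rose, whereas ULBP2 fell from 8.74 ± 0.172 to 2.04 ± 0.0652 CPM (-2.10).

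Class II genes went the other way from B2M, TAP1 and TAPBP. Of 10 tested class II genes, 8 fell, 1 rose and 1 did not pass, with a median of -3.67. HLA-DQB1 had 1264 reads in control and 67 in shSTN1 (-4.21), HLA-DRB1 252 and 9 (-4.73), and HLA-DMB 393 and 27 (-3.81). The invariant chain gene CD74 rose from 0.780 ± 0.0775 to 9.79 ± 0.782 CPM (3.64). Class II genes mark antigen-presenting cells, so leukocyte markers are given beside them. Of 10 leukocyte markers, PTPRC had 0 reads in control and 2 in shSTN1, CD3E and MS4A1 had 0 in all libraries, and 5 were tested, with 2 higher and 2 lower. Their summed level was 16.8 to 18.7 CPM in control and 19.0 to 21.7 CPM in shSTN1, most of it CORO1A (12.02 ± 1.61 and 16.8 ± 1.84 CPM). NKG7 went from 33 reads to 8 and ITGAM from 10 to 130. Of 6 endothelial markers 2 were tested, with 1 lower and 0 higher and a summed level of 13.7 to 18.4 CPM in control and 1.82 to 2.34 CPM in shSTN1, and PECAM1 had 0 reads in all libraries. FLT1 had 947 reads in control and 7 in shSTN1, and KDR, which did not pass, 80 and 117. Of 6 fibroblast markers 3 were tested, with 2 higher and a summed level of 64.1 to 77.9 CPM in control and 147 to 162 CPM in shSTN1. COL1A1 (1.404) and COL3A1 (0.29) rose, and PDGFRB did not pass (0.91). The 3 untested fibroblast markers had few reads and did not rise together. LUM had 30 reads in control and 2 in shSTN1, DCN 6 and 0, and COL1A2 1 and 2. The part of the leukocyte, endothelial, fibroblast and epithelial marker differences in the class I result was not tested.

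Most members lie in the major histocompatibility complex on chromosome 6, where neighbours were called in both directions, more of them higher than lower. Between the starts of HLA-F and TAPBP, 128 other genes were tested, of which 57 were higher, 28 lower and 43 not called, with a median log2 fold change of 0.24. Over all genes tested, 35.6% were higher and 38.5% lower, with a median of -0.03. Within 500 kb of the start coordinate of TAP1, 7 of 26 other tested genes were higher and 11 lower (median -0.15), and within 500 kb of HLA-C 20 of 35 were higher and 6 lower (median 0.63). TAP1 (1.57) therefore lay above the median of its neighbours and HLA-C (0.12) below. Neighbours were ordered by lowest annotated coordinate whatever the strand, which for TAP1, on the minus strand, is the 3′ end. The order therefore does not place the transcription start of a neighbour, such as PSMB9, at that end of TAP1. In that order the nearest tested protein-coding genes of TAP1 were PSMB9 (3.16) on the lower side and HLA-DMB (-3.81) on the upper side. Those of TAPBP were RGL2 (1.29) and ZBTB22, which did not pass (-0.09).

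B2M and NLRC5 lie outside this complex. Around B2M, 3 of 10 other tested genes were higher and 2 lower (median 0.18), and its neighbours were SPG11, which did not pass (0.05), and TRIM69 (1.17). Around NLRC5, 10 of 22 were higher and 8 lower (median 0.36), with HERPUD1 at -1.16 and CPNE2 at 1.61 as its neighbours. NLRC5 (-1.54) was lower than the lowest of these 22 genes, at -1.16.

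**Figure D4:**
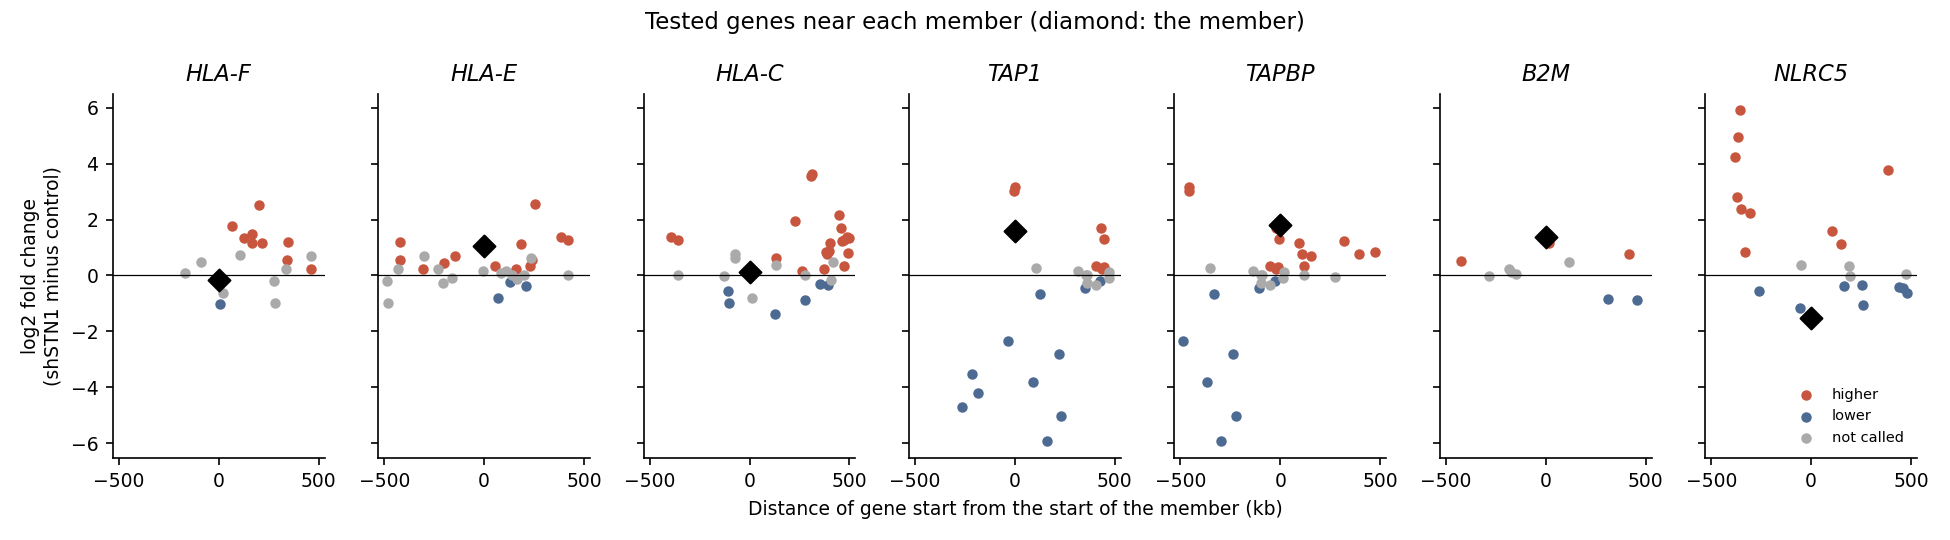
Log2 fold change, shSTN1 minus control, of tested genes whose start coordinate lies within 500 kb of that of a member, against the distance in kb, for 7 members. Black diamonds are the members, red and blue points genes called higher and lower, and grey points genes not called. Genes of both directions lie beside most members, with the values below -2 near TAP1 and TAPBP.

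The genes most like B2M and NLRC5 were found by the Euclidean distance between their 6 centred log2 CPM values. For B2M they were CHRNB1 (distance 0.0909), HACD1 (0.125), HSPB1 (0.126), DYRK1B (0.127) and ZNF875 (0.131), with log2 fold changes of 1.35 to 1.46. For NLRC5 they were FAM13A (0.197), CERS4 (0.220), FAM149A (0.233), PARP11 (0.235) and SEMA3B (0.258), with log2 fold changes of -1.63 to -1.37. Among the members TAP1 (0.384) and HLA-E (0.417) were closest to B2M, and HLA-F (1.70) was closest to NLRC5. Many other genes were closer, since over all genes tested TAP1 ranked 381 and HLA-E 485 from B2M, and HLA-F 5980 from NLRC5. With 2 groups of 3 libraries this distance mostly reflects the difference between the groups.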

How the data were processed

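The authors deposited raw read counts per gene for 6 libraries, without normalization. The submitters' processing notes list cutadapt and FastQC, STAR 2.7.2b, featureCounts 2.0.1 and the build GRCh38. Neither the annotation release, the strand setting nor the handling of multi-matching reads is given in the sources used here. Of 60668 rows, 45 second copies of pseudoautosomal genes were left out. Positions and lengths came from GENCODE 29, which holds 58516 of the genes by identifier without its version. Counts were fitted with edgeR 4.0.16 in R 4.3.3 (filterByExpr, TMM, robust quasi-likelihood test, no covariates) and p-values adjusted by Benjamini and Hochberg over 17451 genes. Each SE belongs to the difference of mean log2 CPM (computed with prior count 2), not to the edgeR estimate, and intervals come from limma-voom (limma 3.58.1). Ratios had 0.5 reads added. Replicate counts varied beyond sampling noise (chi-square over degrees of freedom, 2.88 to 8.06); the labels call them biological but name no separate cultures, so p-values may measure technical spread in part.

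The members and lists were chosen with earlier results of these data known. All 9 members were named, together with up to 4 genes of each other list by smallest adjusted p, and PSMB8, PSMB9, PSMB10, CIITA, RFX5 and IRF1 in any case. Some list genes that enter the counts, medians and sums are not reported here by name. Marker lists are also given as sums, with PTPRC, CD3E, MS4A1 and PECAM1 as defining markers. RFXANK, IRF2 and the untested fibroblast markers COL1A2, DCN and LUM were added after their values were seen. Alternatives were other scaling factors and filters, DESeq2 1.42.0, limma-voom, a replicate block, glmTreat, and leaving out each library.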

Additional observations from a re-analysis of the deposited data

How the results depend on the processing

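The same 6 members were called, in the same directions, under RLE and upper-quartile factors, without a low-count filter, with at least 1 CPM in 3 libraries, by DESeq2, by limma-voom and with the replicate number as a block. With the replicate block 5 members were higher and 12742 genes were called in all. Same-numbered libraries shared little deviation from their group means (r = -0.0123, 0.0171 and -0.0337), and the numbers were not taken as pairs. Over these alternatives 12074 to 13901 genes were called. With each library left out in turn, 12586 to 12857 genes and 5 to 6 members higher were called, the sixth being HLA-C without control replicate 3, and 4 members at 2-fold or more each time. By glmTreat against a fold of 1.5, 7306 genes passed, with 4 members higher and 1 lower. Of 117 member values under the alternatives, 116 kept their direction and their side of the threshold. The HLA-B to HLA-C log2 ratio difference (-0.0085 with all libraries) changed sign without control replicate 1 (0.0114) and without shSTN1 replicate 2 (0.0393), within -0.0405 to 0.0393 over the libraries left out, and the cause was not tested. The other 5 ratios kept their direction. Scaling moved the median of all genes by -0.0341 (upper-quartile factors) and -0.0071 (RLE factors) on the log2 scale. The TMM factors themselves lay apart by group, at 1.065 to 1.084 in control and 0.926 to 0.938 in shSTN1. Under upper-quartile factors the log2 fold changes were 0.077 for HLA-B and 0.082 for HLA-C. A scaling error shared by these methods was not tested, and differences as small as these could depend on it. Depth limits NLRC5 most, with 28 to 43 reads per shSTN1 library.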
